A study of Homo sapiens with 57 samples.

Results

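The 7 genes described here encode 3 nuclear receptors and 4 proteins that work with them: the oestrogen receptors ESR1 and ESR2, the farnesoid X receptor NR1H4, the coactivators MED1, PPARGC1A and KAT2B, and the corepressor HDAC1. They were taken by their Entrez gene IDs from the 412 genes of the panel, and all 7 were measured in all 57 wells. A nuclear receptor is a transcription factor that binds DNA response elements and is switched by a small ligand: oestradiol for ESR1 and ESR2, bile acids for NR1H4. The liganded receptor recruits coactivators, some of which acetylate histones (KAT2B) while others link it to RNA polymerase II (MED1, a subunit of Mediator), and an unliganded or antagonised receptor can recruit corepressor complexes in which histone deacetylases such as HDAC1 remove those acetyl groups. PPARGC1A (PGC-1α) coactivates many receptors, is induced by cyclic AMP in several tissues, and is known in kidney tubules as a regulator of mitochondrial content.

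The wells held HK-2 cells, an immortalised line from human proximal tubule epithelium, seeded at 3000 cells per well. Cells received an ethanol extract of Roucongrong (Cistanche deserticola), Yinyanghuo (Epimedium brevicornu) or Gusuibu (Drynaria fortunei), the 3 herbs of the Wenshenyang recipe, at 100 μg/mL for 24 h in 3 wells per herb, and each herb had its own set of 16 wells with 0.5% DMSO; the labels do not give the DMSO content of the herb wells. The assay was RASL-seq: neighbouring probes on an mRNA are ligated, amplified and sequenced, so that a count is a ligated probe pair and levels can be compared between wells but not between genes. The total count per well ran from 13581 to 75969, and a floor of 3 counts corresponded to between 39.5 and 221 CPM, the count scaled to a common library total. All wells come from 1 cell line, nothing in the labels ties them to separate cultures, and p-values therefore measure the spread between wells, which may be technical. Of 13 markers of the proximal tubule only HNF4A was on the panel, at 0 to 3 counts in the DMSO wells, while CDH2 (268 to 869 counts), FN1 (722 to 3652 counts) and VIM (373 to 1615 counts), genes of mesenchymal cells that tubule cells in culture also express, were read in every DMSO well. Of the leukocyte markers, ITGAM had 0 to 3 counts and ITGB2 3 to 22 in the DMSO wells, and of the endothelial markers CDH5 had 0 to 6 and KDR 1 to 29. In whole wells, fewer cells expressing a gene and less RNA per cell cannot be told apart.

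The level of detection divided the 7 genes. ESR1 was close to absent, with 24 counts in all over the 48 DMSO wells and a highest count of 4 in any well. ESR2 had a median of 4 counts in the DMSO wells, was at 0 in 8 of the 48 and rose above 3 counts in 26. NR1H4 had a median of 13 counts and was above 3 counts in all 48. MED1 (median 120 counts), PPARGC1A (142.5 counts), KAT2B (37.5 counts) and HDAC1 (38 counts) were above 3 counts in all 57 wells. HK-2 cells therefore gave measurable signal for the coregulators in each well, and for the oestrogen receptors only in part of the wells.

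With the criterion of the study, which asks for a fold over 1.5 or under 0.67 with an unadjusted p of less than 0.05, edgeR's quasi-likelihood test called 2 of the 7 genes in each of the 3 herbs, and they were different genes each time. Roucongrong had ESR2 and MED1, both lower; across the panel 10.2% of the 402 genes tested met the criterion, 2.99% downwards and 7.21% upwards. Yinyanghuo had PPARGC1A, higher, and HDAC1, lower, where 15% of the 400 genes tested met the criterion, 7.75% upwards and 7.25% downwards. Gusuibu had ESR1 and KAT2B, both higher, where 9.45% of the 402 genes tested met the criterion, 7.71% upwards and 1.74% downwards. In this edgeR fit of each herb with its own set, all wells kept and no covariate, no member reached an adjusted p under 0.05. The smallest Benjamini-Hochberg value of a member, adjusted over all genes tested, was 0.0889 for Roucongrong, 0.166 for Yinyanghuo and 0.0797 for Gusuibu. Each herb had 2 members at an unadjusted p under 0.05. DESeq2 also gave 0 members with an adjusted p under 0.05 and 2 at an unadjusted p under 0.05 per herb. Over the panel 2.99%, 7.5% and 5.22% of genes passed the adjusted threshold in edgeR for Roucongrong, Yinyanghuo and Gusuibu. When all 57 wells entered 1 edgeR fit, MED1 with Roucongrong had an adjusted p of 0.029. All the called genes but ESR1 also stand among the differentially expressed genes that the study listed from these same wells, so these calls are not independent evidence. In the exact permutation test over the wells, 5 of the 21 pairs of member and herb had an unadjusted p under 0.05 (ESR2 and MED1 with Roucongrong, HDAC1 with Yinyanghuo, ESR1 and MED1 with Gusuibu), beside 14.9%, 19.8% and 14.7% of all genes tested with Roucongrong, Yinyanghuo and Gusuibu. None of the 21 had an adjusted p under 0.05 in that test, which 0%, 8.5% and 0% of all genes passed.

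**Figure D1:**
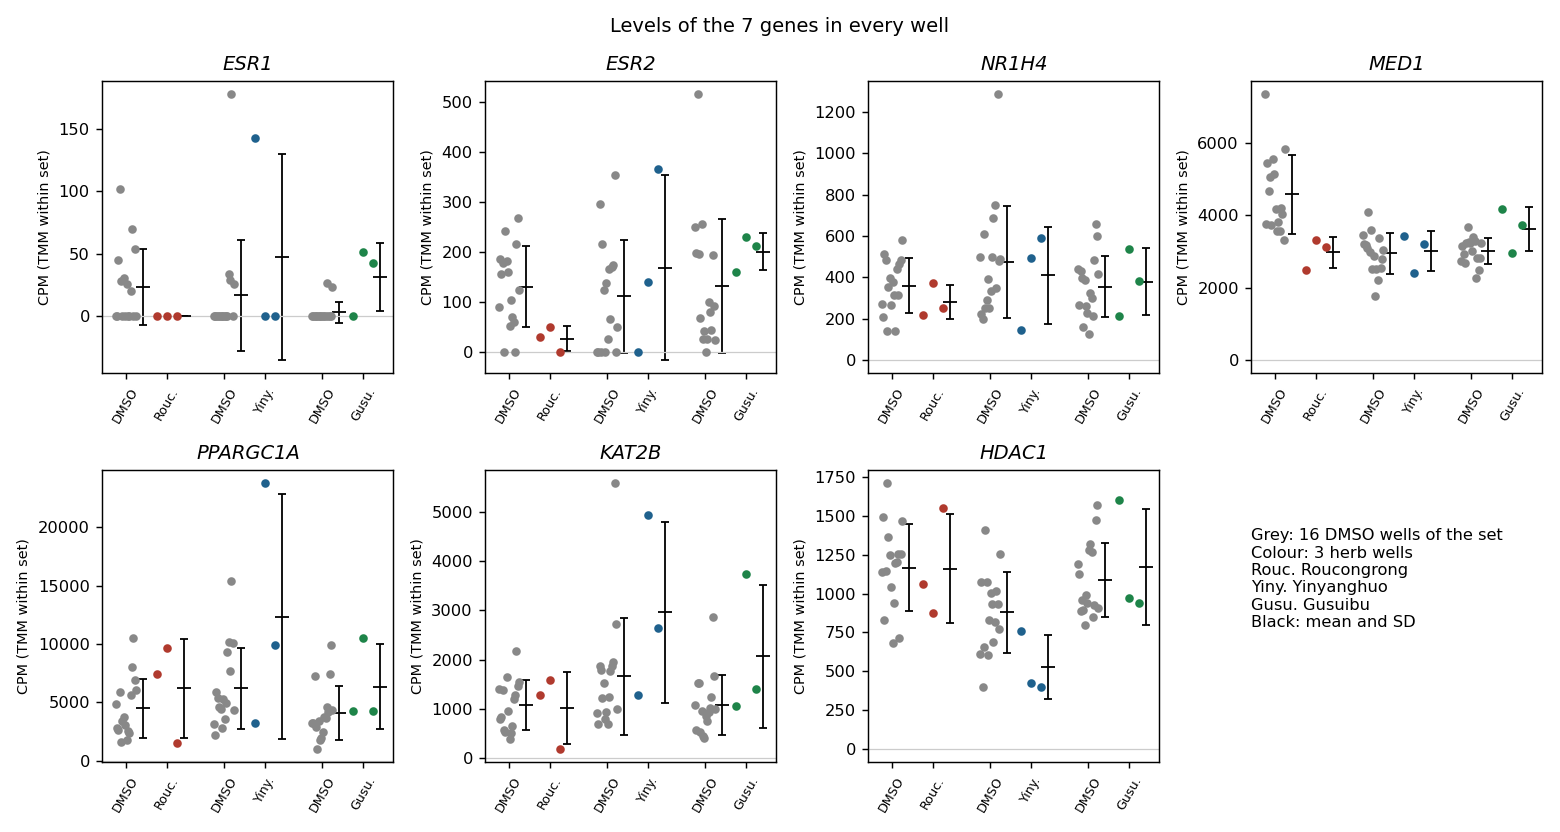
CPM scaled by TMM within each herb's set (y axes) of the 7 genes in every well; grey points are the 16 DMSO wells of a set, coloured points its 3 herb wells, and black marks the mean with its SD. MED1 sits higher in the DMSO wells of the Roucongrong set (mean 4576 CPM) than in the Roucongrong wells (2979 CPM), and the highest PPARGC1A value is 1 Yinyanghuo well at 23795 CPM.

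Among the receptors, ESR1, which mediates most oestrogen responses in reproductive tissue and bone, stayed at the floor. The 3 Roucongrong wells had 0, 0 and 0 counts and their DMSO wells 0 to 4. The 3 Yinyanghuo wells had 3, 0 and 0 counts against 0 to 4 in DMSO, and the 3 Gusuibu wells had 0, 2 and 2 counts against 0 to 1. No herb well was above 3 counts, and herb and DMSO wells overlapped in each set, so no fold change is given. The Gusuibu call (edgeR p = 0.00462, adjusted p = 0.0797; exact permutation test p = 0.0196, adjusted p = 0.219) rests on 4 counts in 3 herb wells and 2 counts in 16 DMSO wells; DESeq2 and both filters on low counts did not make it.

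ESR2, the second oestrogen receptor, often described as opposing ESR1 in proliferation, was read at 1, 2 and 0 counts in the Roucongrong wells, where the 16 DMSO wells ran from 0 through a median of 6 to 11 counts. All 3 herb wells were below the DMSO median, and 2 DMSO wells were at 0 as well; 30.8% of the panel genes had the 3 Roucongrong wells on 1 side of the median. Pooled over wells, 3 counts of 108357 with Roucongrong and 91 counts of 716814 with DMSO gave a ratio of 0.218, with an exact 95% interval of 0.0442 to 0.658 that covers counting error only. The edgeR call had p = 0.0252 and adjusted p = 0.251, and the exact permutation test p = 0.032 and adjusted p = 0.309. It was lost without the first or the third Roucongrong well (p = 0.0551 and p = 0.114 in edgeR), and with the other sets' DMSO wells as control (p = 0.08). With Yinyanghuo the counts were 0, 2 and 13 against a DMSO median of 2.5 and a highest of 8, and with Gusuibu 3, 9 and 10 against a median of 3 and a highest of 18. The Yinyanghuo wells thus spread over the whole DMSO range and beyond it, and the 3 Gusuibu wells lay above their DMSO median of 86.1 CPM while 3 DMSO wells were higher than all of them (29.1% of the panel genes had the 3 Gusuibu wells on 1 side of the median); neither passed the test (log2 fold change 0.75 ± 0.86, SE, p = 0.391, and 0.63 ± 0.64, p = 0.333, edgeR). 

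NR1H4, which senses bile acids and lowers their synthesis in liver and is also expressed in kidney, was read at 7, 15 and 9 counts with Roucongrong, 3, 7 and 21 with Yinyanghuo, and 4, 21 and 18 with Gusuibu. The DMSO medians were 15, 13 and 12 counts, with extremes of 5 and 37, 4 and 29, and 4 and 21. Herb wells lay inside the DMSO range in CPM except 1 Yinyanghuo well at 143 CPM, under the lowest DMSO well at 198 CPM. The log2 fold changes were -0.34 (95% interval -1.12 to 0.44) for Roucongrong, -0.16 (-1.12 to 0.80) for Yinyanghuo and 0.20 (-0.53 to 0.94) for Gusuibu, none of them past the test. The Roucongrong interval holds a fold below 0.67 but not one above 1.5, the Gusuibu interval the reverse, and the Yinyanghuo interval both.

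MED1, the Mediator subunit that liganded nuclear receptors contact, was the only one of the 7 genes whose herb and DMSO wells did not overlap in CPM, and this was so with Roucongrong alone. The Roucongrong wells had 80, 133 and 113 counts, or 2492, 3318 and 3128.5 CPM, and the 16 DMSO wells of the set ran from 3320.3 through 4198.5 to 7348 CPM. All 3 herb wells were below every DMSO well, whereas 2.24% of the panel genes had no overlap with Roucongrong, 4.25% with Yinyanghuo and 1.49% with Gusuibu, although the gap between the highest herb well and the lowest DMSO well was under 3 CPM. Mean levels were 2979 ± 433 CPM (SD, n = 3) and 4576 ± 1088 CPM (SD, n = 16), a log2 fold change of -0.61 ± 0.19 (SE; edgeR p = 0.00354, adjusted p = 0.0889), and the exact permutation test gave p = 0.00722 (adjusted p = 0.182; the smallest p it allows is 0.00103). Without the first Roucongrong well the log2 fold change was -0.50 and short of the fold criterion, and in 1 fit of all 57 wells it was -0.60 with an adjusted p of 0.029. With Yinyanghuo the wells had 3426, 2401 and 3213 CPM around a DMSO median of 3009.5 CPM (log2 fold change 0.04 ± 0.18, SE). With Gusuibu they had 4162, 2970.1 and 3729 CPM, where DMSO ran from 2261 through 3079 to 3679 CPM; 2 of 3 herb wells were above the highest DMSO well, at a log2 fold change of 0.25 ± 0.13 (edgeR p = 0.0661; exact permutation test p = 0.0444, adjusted p = 0.319).

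The level of MED1 in the DMSO wells themselves differed between the sets, which bears on that comparison. With all 57 wells on 1 scale, the DMSO wells of the Roucongrong set had 4773 ± 1102 CPM, those of the Yinyanghuo set 2871 ± 525 CPM and those of the Gusuibu set 2943 ± 371 CPM (SD, n = 16 each). The log2 difference was -0.73 for Yinyanghuo minus Roucongrong (adjusted p = 7.38e-09, edgeR; 21.4% of the panel genes passed) and 0.69 for Roucongrong minus Gusuibu (adjusted p = 1.39e-08; 22.6% passed). Between the Yinyanghuo and Gusuibu sets it was -0.04 ± 0.10 (SE), where 5.83% of the panel passed. On the same scale the herb wells were closer together, at 3140 ± 478 CPM for Roucongrong, 2984 ± 589 CPM for Yinyanghuo and 3620 ± 808 CPM for Gusuibu (SD, n = 3 each). Set against the 32 DMSO wells of the other two sets, the Roucongrong wells had a log2 fold change of 0.08 (edgeR p = 0.571), so the lower MED1 level was seen against the control wells of its own set and not against the others. Of the 412 genes, 26.2% differed between the DMSO sets at an adjusted p under 0.05. Among the members these were MED1 and HDAC1 (adjusted p = 2.57e-10 and 0.0101, edgeR test over the 3 sets). ESR1, at the floor, passed only between the Roucongrong and Gusuibu sets (adjusted p = 0.0289, edgeR). Whether plate, day or preparation distinguishes the sets is not given in the labels, and a set and its herb cannot be told apart in comparisons between herbs.

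PPARGC1A varied several-fold among untreated wells. The lowest, median and highest DMSO wells had 1601, 3553 and 10502 CPM beside Roucongrong, 2181, 5102 and 15351 CPM beside Yinyanghuo, and 1028, 3526.5 and 9894 CPM beside Gusuibu. With Yinyanghuo the 3 wells had 3188.5, 23795 and 9948 CPM (67, 337 and 353 counts): the first ranked 16th of the 19 wells, the second was the highest of all and the third ranked 5th. The means were 12311 ± 10505 CPM (SD, n = 3) and 6179 ± 3495 CPM (SD, n = 16), with a log2 fold change of 0.98 ± 0.42 (SE; edgeR p = 0.027, adjusted p = 0.177), while the exact permutation test gave p = 0.191 (adjusted p = 0.509). Without the second Yinyanghuo well the log2 fold change was 0.11, and without the first it was 1.44 (edgeR p = 0.00228, adjusted p = 0.035); the second well had 13581 counts in total, the lowest of the 57. With the DMSO wells of the Roucongrong and Gusuibu sets as control, the Yinyanghuo value was 1.47 (edgeR adjusted p = 0.00708). With Roucongrong the wells had 7413, 9679 and 1495 CPM, of which the last was below every DMSO well (log2 fold change 0.48 ± 0.42, SE, edgeR p = 0.259). Without that well the log2 fold change was 0.95 and met the criterion (edgeR p = 0.0285, adjusted p = 0.499). With Gusuibu they had 4215, 10523 and 4283 CPM, all above the DMSO median and 1 above every DMSO well (0.68 ± 0.37, SE, edgeR p = 0.0748). The estimate was positive for each herb. With all 3 herb wells and no covariate, none had an adjusted p under 0.05 against its own DMSO set.

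KAT2B (PCAF), a histone acetyltransferase that joins receptor coactivator complexes, followed the same wells. With Gusuibu it was read at 1067, 3738 and 1406 CPM (20, 146 and 66 counts) and the DMSO wells ran from 416 through 975 to 2867 CPM. All 3 herb wells were above the DMSO median, and 1 was above every DMSO well. The means of 2071 ± 1454 CPM (SD, n = 3) and 1084 ± 610 CPM (SD, n = 16) gave a log2 fold change of 1.01 ± 0.35 (SE; edgeR p = 0.00761, adjusted p = 0.101), and the exact permutation test gave p = 0.0857 (adjusted p = 0.4). Without the second Gusuibu well the log2 fold change was 0.265 (edgeR p = 0.533), and with the other sets' DMSO wells as control it was 0.61 (p = 0.143). With Yinyanghuo the wells had 1285, 4943 and 2649 CPM against a DMSO median of 1380.1 CPM (log2 fold change 0.82 ± 0.43, SE, edgeR p = 0.0705; 1.39 with the other sets as control, adjusted p = 0.00524), and with Roucongrong 1277, 1597 and 194 CPM against 1083 CPM (-0.06 ± 0.43, SE). The third Roucongrong well, lowest for PPARGC1A, was the lowest of its set for KAT2B too.

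**Figure D2:**
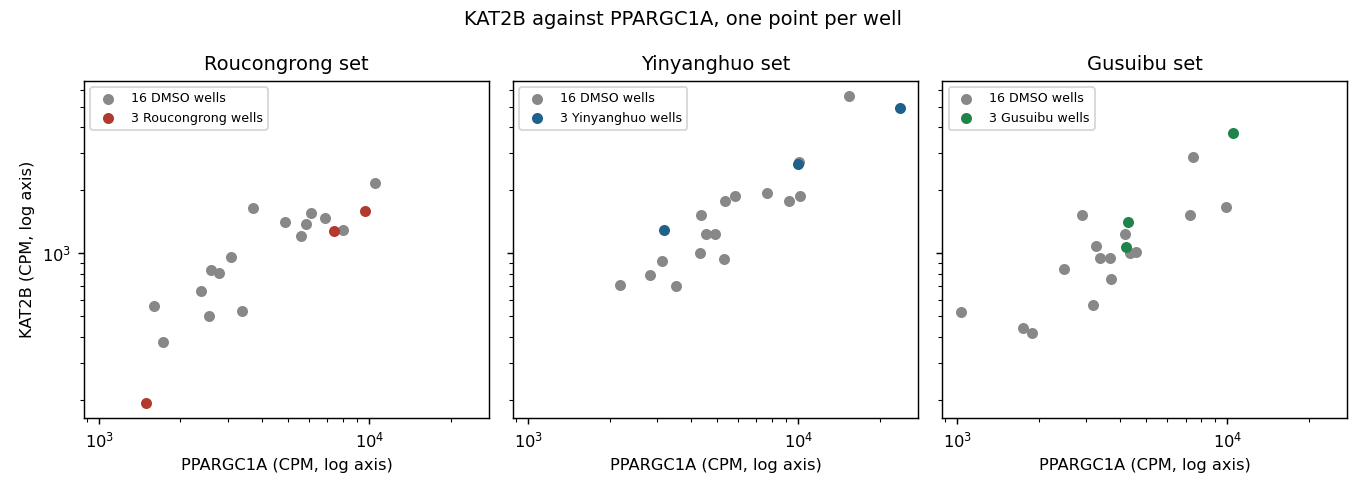
KAT2B (y axis) against PPARGC1A (x axis), both in CPM on log axes, with 1 point per well and 1 panel per set; grey points are the 16 DMSO wells, coloured points the 3 herb wells. In each set the DMSO wells form a rising band (Spearman 0.82, 0.92 and 0.76 from left to right), and the herb wells lie along it.

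Among the DMSO wells PPARGC1A and KAT2B rose and fell together, with Spearman correlations of 0.82 (Roucongrong set), 0.92 (Yinyanghuo set) and 0.76 (Gusuibu set; n = 16 wells each). After the mean of each set was removed, the correlation over the 48 DMSO wells was 0.84, and NR1H4 correlated with both (0.63 with PPARGC1A, 0.60 with KAT2B). The correlations of MED1 and HDAC1 with PPARGC1A were -0.32 and 0.02. Of the 183 panel genes with a mean of at least 10 counts, the 3 most like PPARGC1A were ANXA1 (annexin A1; 0.90), ATM (a DNA damage kinase; 0.89) and IL23A (a cytokine subunit; 0.87), and the 3 most like KAT2B were ANXA1 (0.86), IL23A (0.86) and PPARGC1A (0.84). In all, 16 genes had a correlation above 0.6 with PPARGC1A, among them KAT2B and NR1H4. The 3 genes most like MED1 were CAV1 (0.68), SMAD4 (0.62) and CDC42 (0.59), and those most like HDAC1 were TNC (0.43), LTA4H (0.37) and HIF1A (0.36). These correlations describe untreated wells that share library preparation and depth: within the DMSO wells of the 3 sets, PPARGC1A in CPM had Spearman correlations of -0.52, -0.24 and -0.55 with the total count of the well (Roucongrong, Yinyanghuo, Gusuibu), and the part of depth in the shared variation was not tested.

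**Figure D3:**
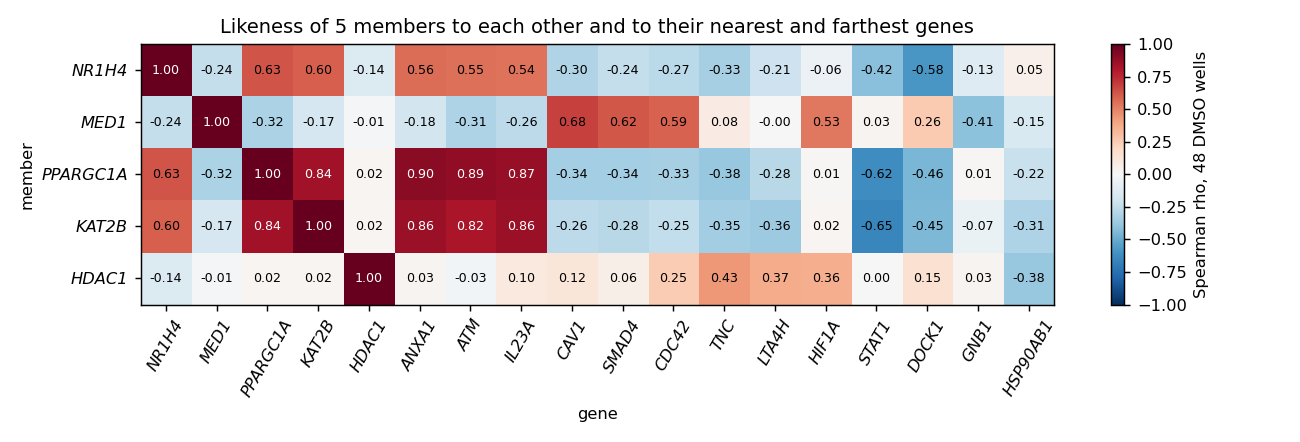
Spearman correlations over the 48 DMSO wells, set means removed, of 5 members (rows) with each other and with their nearest and farthest panel genes (columns); red is positive and blue negative. PPARGC1A, KAT2B and NR1H4 share a block of positive values with ANXA1, ATM and IL23A (PPARGC1A with KAT2B 0.84), whereas MED1 goes with CAV1, SMAD4 and CDC42.

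The herb wells also varied in the level of the genes that covaried with PPARGC1A. The mean log2 level of the 14 covarying genes that are not members lay, relative to the DMSO median, at -0.35, 1.83 and 0.74 in the Yinyanghuo wells (DMSO range -0.93 to 1.68), at -0.11, 1.58 and 0.51 in the Gusuibu wells (-0.83 to 1.17) and at 0.20, 0.36 and -1.19 in the Roucongrong wells (-1 to 1.15). Within each herb, the well with the highest PPARGC1A and KAT2B thus also had the highest level of these genes. Roucongrong wells 1 and 2 ranked 4th and 2nd of 19 for PPARGC1A. At 7413 and 9679 CPM they were inside its DMSO range of 1601 to 10502 CPM. Their levels of the 14 covarying genes were inside the DMSO range as well. For each 100 counts of PPARGC1A the Roucongrong wells had 17.2, 16.5 and 13 counts of KAT2B, where the DMSO wells of the set ran from 15.6 through 24.6 to 44.3. The Gusuibu wells had 25.3, 35.5 and 32.8 (DMSO 16.8 through 25.5 to 52.4), inside the DMSO range.

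The promoter windows of these 3 covarying members are shown because their levels moved together (RefSeq, GRCh38.p14; 250 bases before the start site to 50 after it, 5′ to 3′ on the gene's strand). All 7 members matched the RefSeq promoter table; PPARGC1A has 2 entries there, of which the downstream one is printed. PPARGC1A lies at chr4:23881052-23881351 (minus strand), KAT2B at chr3:20040196-20040495 (plus strand) and NR1H4 at chr12:100503110-100503409 (plus strand). Capitals mark matches on either strand to the nuclear receptor hexamer AGGTCA, the core TGACG of the cyclic AMP response element, the GC box GGGCGG and the TATA box TATAAA.
PPARGC1A: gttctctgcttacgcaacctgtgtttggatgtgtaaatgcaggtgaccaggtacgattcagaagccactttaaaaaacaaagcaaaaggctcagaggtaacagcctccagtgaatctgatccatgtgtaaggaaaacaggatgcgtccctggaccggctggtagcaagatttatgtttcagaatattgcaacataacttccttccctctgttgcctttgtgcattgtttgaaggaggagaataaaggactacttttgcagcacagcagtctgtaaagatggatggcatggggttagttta
KAT2B: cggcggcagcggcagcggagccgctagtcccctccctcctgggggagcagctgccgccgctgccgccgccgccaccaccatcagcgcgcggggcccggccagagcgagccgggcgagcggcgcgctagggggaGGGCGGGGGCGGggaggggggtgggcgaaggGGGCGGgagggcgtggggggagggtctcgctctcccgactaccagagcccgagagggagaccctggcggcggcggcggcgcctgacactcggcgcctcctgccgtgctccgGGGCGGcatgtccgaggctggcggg
NR1H4: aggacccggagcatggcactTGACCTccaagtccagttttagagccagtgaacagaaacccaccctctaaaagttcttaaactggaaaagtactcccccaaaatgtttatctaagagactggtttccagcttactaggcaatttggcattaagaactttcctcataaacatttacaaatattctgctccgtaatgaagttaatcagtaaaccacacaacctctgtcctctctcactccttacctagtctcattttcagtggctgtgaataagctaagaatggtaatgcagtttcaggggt
The windows differ in base composition, with a GC content of 44% for PPARGC1A, 80.3% for KAT2B and 41.7% for NR1H4. KAT2B holds 4 matches to the GC box, of which 2 adjoin, a motif that 45% of the 35116 promoter windows in the table hold. NR1H4 holds 1 match to AGGTCA, on the reverse strand, which 13.8% of windows hold. The PPARGC1A window holds none of the 4 motifs; its other entry, at chr4:24472856-24473155, holds 1 TGACG, found in 24.6% of windows, and 1 GC box. The full oestrogen response element, GGTCANNNTGACC, was in none of the windows of the 7 members and in 0.057% of all windows. A match is a string of letters and not a bound site.

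HDAC1, the deacetylase subunit of corepressor complexes, was lower with Yinyanghuo. The herb wells had 16, 6 and 14 counts, or 761, 424 and 395 CPM, and the DMSO wells ran from 395.5 through 881 to 1409.5 CPM. All 3 herb wells were below the DMSO median (27.8% of the panel genes had the 3 Yinyanghuo wells on 1 side of it) and 11 of the 16 DMSO wells were above all of them, but the groups overlapped. The means of 527 ± 204 CPM (SD, n = 3) and 879 ± 261 CPM (SD, n = 16) gave a log2 fold change of -0.76 ± 0.32 (SE; edgeR p = 0.0233, adjusted p = 0.166), and the exact permutation test gave p = 0.0206 (adjusted p = 0.147). The call was lost without the second well (log2 fold change -0.67, edgeR p = 0.0743) or without the third (-0.54, p = 0.172). With Roucongrong the wells had 1059, 873 and 1550.4 CPM around a DMSO median of 1201 CPM (log2 fold change -0.01 ± 0.23, SE), and with Gusuibu 1601, 973 and 938 CPM around 973 CPM (0.06 ± 0.21, SE). The DMSO wells of the Yinyanghuo set were themselves lower than those of the Roucongrong set by a log2 difference of -0.49 ± 0.13 (SE, adjusted p = 0.00336, edgeR), a threshold that 21.4% of the panel genes passed. Set against the other two sets' DMSO wells, HDAC1 with Yinyanghuo stood at -1.15 on the log2 scale (edgeR, adjusted p = 0.00196).

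**Figure D4:**
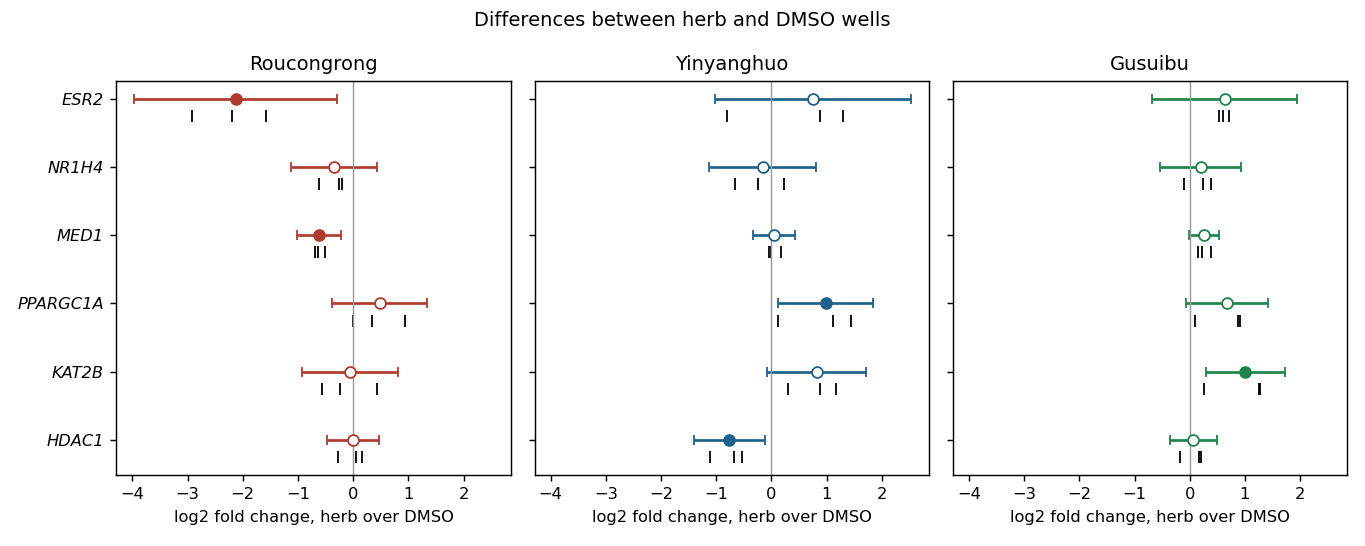
log2 fold change of herb over DMSO wells (x axis) with its 95% interval for 6 members (ESR1 is left out because no fold is given), 1 panel per herb; filled points met the criterion, and black ticks give the value when each herb well is left out in turn. MED1 with Roucongrong ranges from -0.70 to -0.50 without 1 well, whereas PPARGC1A with Yinyanghuo ranges from 0.11 to 1.44.

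The herb effects on each gene were compared with each other in 1 fit of all 57 wells. Of 21 such differences, 2 had an adjusted p under 0.05, both between Roucongrong and Gusuibu: MED1, where the effect of Roucongrong was lower by a log2 difference of -0.88 ± 0.24 (SE, adjusted p = 0.025, edgeR), and ESR1 (adjusted p = 0.0484), which stands at the floor in both. Between these herbs 6.55% of the panel genes differed, between Yinyanghuo and Roucongrong 6.8% and between Yinyanghuo and Gusuibu 5.58%. MED1 between Yinyanghuo and Roucongrong had a difference of 0.67 ± 0.24 (SE, adjusted p = 0.0944), and with genes of a mean count of at least 5 alone it was 0.72 (adjusted p = 0.0297). For PPARGC1A the 3 differences were between -0.19 and 0.50 with SE of 0.66, and for KAT2B the largest was -1.05 ± 0.64 (SE, Roucongrong minus Gusuibu, adjusted p = 0.358), so an effect that met the criterion in 1 herb was not shown to differ from the others. By rank of level in the DMSO wells, KAT2B, PPARGC1A and NR1H4 were each highest in the Yinyanghuo set (1611 ± 1112, 6011 ± 3318 and 461 ± 257 CPM) and lowest in the Gusuibu set (1057 ± 577, 3964 ± 2255 and 347 ± 146 CPM; SD, n = 16), and no pair of sets differed at an adjusted p under 0.05 for these 3 genes. HDAC1 was highest in the Roucongrong set (1220.2 ± 304 CPM), then Gusuibu (1060.3 ± 229 CPM), then Yinyanghuo (859 ± 257 CPM), and neighbours in that order did not pass. ESR2 had 136 ± 85.1, 129 ± 129 and 108 ± 107 CPM in the Roucongrong, Gusuibu and Yinyanghuo sets, with no difference past the threshold.

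The wider pathway was described with the other panel genes of the same roles. Of 26 nuclear receptors measured, members included, only 3 had a mean of 10 counts or more, the most counts being those of NR1H2 (LXRβ; mean 24.5 counts). With Yinyanghuo 4 of 25 tested met the criterion upwards and 0 downwards, at a median log2 fold change of 0.54 beside -0.13 over all genes tested, of which 7.75% met it upwards and 7.25% downwards: NR1H2 (0.83 ± 0.30, SE), the orphan receptor NR4A2 (1.63 ± 0.64), PPARG, the regulator of fat cell genes (1.40 ± 0.53), and the vitamin D receptor VDR (1.63 ± 0.75), none with an adjusted p under 0.05 (edgeR, lowest 0.0945). NR4A2 had 7, 5 and 5 counts and VDR 8, 0 and 6 in the Yinyanghuo wells, each against a DMSO median of 1.5. PPARG had 19, 2 and 17 counts there against a DMSO median of 5.5. The median of 0.54 was the estimate of NR1H3, whose SE was 0.80. With Roucongrong 3 of 26 met the criterion upwards and 1 downwards (7.21% and 2.99% of all genes), and with Gusuibu 1 and 1 (7.71% and 1.74%). Of the Roucongrong genes, PPARA and RARB rest on at most 2 counts in a well. Of 9 coregulators measured, 7 had a mean of 10 counts or more. With Roucongrong, Yinyanghuo and Gusuibu, 0, 1 and 1 of the 9 met the criterion upwards (7.21%, 7.75% and 7.71% of all genes). Downwards 1, 2 and 0 met it (2.99%, 7.25% and 1.74%). They were members, which were chosen with earlier results of these data known, except NCOA2 with Yinyanghuo (0, 0 and 4 counts against a DMSO median of 3). Among 4 chaperones and pioneer factors of the oestrogen receptor, HSPA8 met it with Roucongrong (log2 fold change 0.73 ± 0.32, SE, adjusted p = 0.271, edgeR), and HSP90AB1, with the most counts of the list, did not with any herb.

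With Roucongrong, Yinyanghuo and Gusuibu, 1, 2 and 3 oestrogen-responsive genes had an adjusted p under 0.05 (edgeR), beside 2.99%, 7.5% and 5.22% of all genes. Of 14 oestrogen-responsive genes, EREG, which encodes the growth factor epiregulin, rose with each herb: from 8770 ± 1522 to 15233 ± 434 CPM with Roucongrong, from 11297 ± 2841 to 20936 ± 6220 CPM with Yinyanghuo and from 9893 ± 1499 to 14294 ± 2187 CPM with Gusuibu (mean ± SD, n = 16 and 3; adjusted p = 0.000312, 0.00127 and 0.012, edgeR), the Gusuibu rise of 0.53 on the log2 scale being below the fold criterion. CAV1, the caveolae protein and the gene of the list with the most counts, fell with Yinyanghuo by 0.95 on the log2 scale (adjusted p = 0.000294, edgeR). CAV2 rose with Gusuibu by 1.13 (adjusted p = 0.0187, edgeR), as did VEGFA, by 0.47 and below the fold criterion (adjusted p = 0.0329, edgeR). Over the DMSO wells VEGFA also correlated with PPARGC1A (Spearman 0.71, set means removed). Over this list 1, 2 and 1 genes met the criterion upwards and 1, 2 and 0 downwards with Roucongrong, Yinyanghuo and Gusuibu (upwards 7.21%, 7.75% and 7.71% of all genes, downwards 2.99%, 7.25% and 1.74%), with median log2 fold changes of -0.04, -0.44 and 0.19 beside -0.04, -0.13 and 0.04 over all genes. These genes answer to many other signals than oestrogen. Of 8 partners and targets of PGC-1α, only SOD2, the mitochondrial superoxide dismutase, had a mean of 10 counts or more. With Roucongrong SOD2 fell from 612 ± 133 to 292 ± 77 CPM (mean ± SD, log2 fold change -1.05 ± 0.28, SE, adjusted p = 0.0281, edgeR). Of all genes, 2.99% had an adjusted p under 0.05 with Roucongrong. SOD2 gave log2 fold changes of 0.14 and 0.08 with Yinyanghuo and Gusuibu. No other gene of that list had an adjusted p under 0.05. Over the list 2, 1 and 1 genes met the criterion upwards and 1, 0 and 0 downwards with Roucongrong, Yinyanghuo and Gusuibu. Its median log2 fold changes were 0.35, 0.58 and 0.36. The 2 farnesoid X receptor targets on the panel, NR0B2 and APOA1, had mean counts under 10, and NR0B2 had 0.188 counts per DMSO well. Among the mesenchymal markers FN1 fell with Yinyanghuo (log2 fold change -1.48, adjusted p = 5.14e-06) and CDH2 and VIM fell with Gusuibu (-0.58 and -0.40, adjusted p = 0.00239 and 0.0187, edgeR), where FN1 had a log2 fold change of 0.30 (adjusted p = 0.128). ITGB2 met the criterion upwards with Yinyanghuo (18, 2 and 25 counts, log2 fold change 0.98, adjusted p = 0.187, edgeR), as 7.75% of all genes did. The other leukocyte marker, ITGAM, at 0 to 3 counts in the DMSO wells, had an estimate of -2.30 ± 1.59 (SE) there. KDR met the criterion upwards with Gusuibu (4, 40 and 15 counts, 1.34, adjusted p = 0.101, edgeR), as 7.71% of all genes did. For all these markers, their part in the results on the 7 genes was not tested.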

How the data were processed

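HK-2 cells were profiled by RASL-seq for 412 genes in 57 wells. The authors deposited raw counts of ligated probe pairs per gene for each well; per the study's methods, reads with more than 3 mismatches were removed, and the submitters' processing notes name Bowtie2 2.2.4 and DESeq2 1.22.1. Only the first read of each pair was used, and no genome build is given in the sources used here. All 412 Entrez IDs were matched to symbols.

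Groups came from the labels. Counts without rescaling entered edgeR 4.0.16 (R 4.3.3; TMM, quasi-likelihood F test, genes with a nonzero total), 3 herb wells against the 16 DMSO wells of the set, with Benjamini-Hochberg adjustment over all genes tested. Herb effects and DMSO sets were compared in joint fits. An exact two-sided permutation test of the absolute difference in mean log2 CPM (prior count 2) used all 969 choices of 3 of 19 wells for every gene. DESeq2 1.42.0, other scalings, filters and left-out wells were alternatives. Intervals are 95% and cover counting error only where pooled counts are compared. The scripts were tested on simulated counts. The members, the gene lists and the tests were chosen with earlier results of these data known. Named genes were the 7 members, listed genes with an adjusted p under 0.05, the gene of each list with the highest mean count and the 3 genes most like each member; other listed genes that met the criterion were named after their values were seen. A gene that this rule selects is not reported here. Oestrogen-responsive and other lists came from general knowledge. No pair of wells agreed within sampling noise (smallest chi-square per degree of freedom 1.69).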

Additional observations from a re-analysis of the deposited data

Results flagged for a closer look

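The effect on MED1 differed between Roucongrong and Gusuibu in the test of the difference itself (log2 difference -0.88 ± 0.24, SE, adjusted p = 0.025, edgeR): all 3 Roucongrong wells lay below the DMSO median of their set, and 2 of 3 Gusuibu wells above theirs. The difference in the DMSO level of MED1 between these sets (0.69 on the log2 scale) goes with it, and set and herb cannot be told apart.

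The effect on ESR1 differed between the same herbs with an adjusted p of 0.0484 (edgeR), on 0 counts in 3 Roucongrong wells against 15 in 16 DMSO wells, and 4 counts in 3 Gusuibu wells against 2 in 16 DMSO wells. DESeq2 gave p = 0.0971 for that difference and no adjusted value, and a filter on a mean of at least 5 counts removed the gene. ESR1 was itself higher in the DMSO wells of the Roucongrong set than in those of the Gusuibu set (adjusted p = 0.0289, edgeR). That threshold was passed by 22.6% of the panel genes. For ESR1 too, set and herb cannot be told apart.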

How the results depend on the processing

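The 7 genes were recomputed under each alternative. Members called numbered 2 per herb. With Roucongrong the number was 1 with a mean count of at least 5 or filterByExpr (ESR2 was not tested), 0 when the other sets gave the DMSO wells, 0 to 2 without 1 herb well and 3 with the replicate block or with the covariate of covarying genes. With Yinyanghuo it was 0 to 3 without 1 herb well, 3 under RLE scaling or with other sets as control (KAT2B added) and 1 with the covariate. The covariate was chosen after seeing the data, from genes picked for their correlation with PPARGC1A, so it takes off any herb effect they share and says nothing of whether there is one. Under this covariate PPARGC1A with Roucongrong had a log2 fold change of 0.66 (edgeR p = 7.18e-05, adjusted p = 0.00722), beside 0.48 (edgeR p = 0.259) without it. Since its genes were picked for following PPARGC1A in the DMSO wells, the covariate also takes off spread of PPARGC1A between wells. That p is made smaller by the choice and is not read as evidence of an effect. With Gusuibu the number called was 1 with DESeq2, with either filter and with the replicate block. It was 0 with other sets as control and with the covariate, and 1 to 3 without 1 herb well. An adjusted p under 0.05 with no fold criterion gave 0 members for each herb in the edgeR fit of its own set without a covariate. Members whose effect differed between herbs numbered 1 (MED1) in place of 2 with DESeq2 or a mean count of at least 5, where MED1 also differed between Yinyanghuo and Roucongrong. In the test over the DMSO sets, 3 members differed in place of 2 with a mean count of at least 5 (KAT2B added). For the 5 calls with a fold, adjusted p ran over the alternatives from 0.245 to 0.658 for ESR2, from 0.029 to 0.779 for MED1 (both Roucongrong), from 0.00708 to 0.889 for PPARGC1A, from 0.00196 to 1 for HDAC1 (both Yinyanghuo) and from 0.0668 to 0.901 for KAT2B (Gusuibu).

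Signs turned as follows, for log2 fold changes that were called in neither fit unless stated. With the other sets as control, MED1 was 0.081 with Roucongrong (called before), -0.38 with Yinyanghuo and -0.11 with Gusuibu, HDAC1 was 0.32 with Roucongrong, and NR1H4 was 0.19 with Yinyanghuo and -0.089 with Gusuibu. Left-out wells gave ranges of -0.003 to 0.948 for PPARGC1A, -0.56 to 0.44 for KAT2B and -0.28 to 0.17 for HDAC1 with Roucongrong, -0.80 to 1.30 for ESR2, -0.65 to 0.23 for NR1H4 and -0.05 to 0.17 for MED1 with Yinyanghuo, and -0.10 to 0.39 for NR1H4 and -0.18 to 0.21 for HDAC1 with Gusuibu. HDAC1 with Roucongrong was 0.019 under filterByExpr and 0.01 in 1 fit of all wells. With the covariate, KAT2B with Roucongrong was 0.10, and ESR2, NR1H4 and PPARGC1A with Gusuibu were -0.063, -0.43 and -0.12. The causes were not tested.

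Replicate numbers did not pair the wells: deviations of same-numbered wells correlated from -0.43 to 0.38. With the replicate block the members called were 3, 2 and 1 (Roucongrong, Yinyanghuo, Gusuibu) and the panel genes called 26, 37 and 22 in place of 41, 60 and 38. The Yinyanghuo members were then PPARGC1A and KAT2B, and HDAC1 with Yinyanghuo was not called (-0.31, p = 0.542). HDAC1 with Roucongrong was 0.003, NR1H4 and MED1 with Yinyanghuo 0.38 and -0.13, and ESR2 with Gusuibu -0.64. The floor of 3 counts was 221 CPM in the shallowest well, and ESR1 was above 3 counts in 2 of the 57 wells, ESR2 in 29 and NR1H4 in 56.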
